A study of Rattus norvegicus with 8 samples.

Results

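Ketone bodies are made in liver mitochondria from the acetyl-CoA of fatty acid oxidation and are burned in other tissues. The genes Acat1, Bdh1, Bdh2, Oxct1 and Slc16a6 of this route were followed in rat liver. They were chosen by name, as the array's non-control probes whose gene name equals one of these 5 symbols. This gave 8 of the 45598 non-control probes, and all 5 genes were among the 21719 genes tested, of 35905 gene names on the array.

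In hepatocytes, thiolases such as the product of Acat1 join acetyl-CoA units to acetoacetyl-CoA, which is converted through HMG-CoA to acetoacetate. Bdh1 encodes the mitochondrial enzyme that interconverts acetoacetate and beta-hydroxybutyrate, and monocarboxylate transporters carry both acids across membranes. Oxct1 encodes the mitochondrial CoA transferase that starts ketone body use in heart, muscle, kidney and brain, an enzyme that normal hepatocytes are known to hold very little of. Butyrate itself is a short fatty acid that hepatocytes can oxidise to acetyl-CoA.

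Agilent arrays read in 1 colour (Cy3) measured the total RNA of livers of male Wistar rats, with 1 array for each rat by the labels. The 4 STL rats had received structured lipids that contain butyrate (called STL) by gavage at 1.65 g/kg body weight daily, and the 4 control rats had received maltodextrin at 3.0 g/kg body weight, which supplied equal energy. Both groups were put through the resistant hepatocyte model of chemical hepatocarcinogenesis 2 weeks into the treatment, and livers were taken 8 weeks after its start, so no group here is a liver without carcinogenesis. The labels give the strain and sex of the rats but no age. The comparison asks how liver transcript levels under hepatocarcinogenesis differ between rats given the structured lipids and rats given maltodextrin. Lipid given, butyrate given and maltodextrin not given cannot be told apart in this design.

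The arrays of control 1 and control 2 differed over repeated spots by 1.04 times the noise between spots of an array, against 2.08 to 7.18 times for the other 27 pairs of arrays, and were counted as 1 sample, so that 4 STL samples were compared with 3 control samples. Whether these arrays hold the RNA of separate livers was not settled. With all 8 arrays as samples no member changed its call. Signals are given as normalised log2 signal, the log2 of the processed signal minus that of the array's 75th percentile, which lay between 304 and 489 on STL arrays and between 468 and 605 on control arrays. Probes well above background made up 54.2% to 62.9% of an array. The hepatocyte markers Alb, Ttr and Tf had mean signals of 8.96, 9.66 and 9.72 in STL livers, against 8.55, 9.22 and 9.37 in control livers, so these defining genes of the labelled tissue were among the bright probes. Precision is limited by the small number of arrays.

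The probes are shown because each value below is the brightness of exactly 1 of these 60-base sequences, 5′ to 3′, and because they decide which part of a transcript was read. Positions are those of the files, on rn4.
Acat1, NM_017075, chr8:57044781-57044840, minus strand: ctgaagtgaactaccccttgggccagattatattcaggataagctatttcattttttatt
Bdh1 first probe, NM_053995, chr11:71130669-71130728, minus strand: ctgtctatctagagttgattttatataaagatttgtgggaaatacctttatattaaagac
Bdh1 second probe, XM_006248478, chr11:71129742-71129801, minus strand: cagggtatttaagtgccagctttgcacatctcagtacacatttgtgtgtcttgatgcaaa
Bdh2, NM_001106473, chr2:232771263-232772495, plus strand: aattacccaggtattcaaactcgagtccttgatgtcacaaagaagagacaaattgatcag
Slc16a6 first probe, XM_006247613, chr10:98876775-98876834, plus strand: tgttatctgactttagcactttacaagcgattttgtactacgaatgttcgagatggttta
Slc16a6 second probe, NM_198760, chr10:98874712-98874771, plus strand: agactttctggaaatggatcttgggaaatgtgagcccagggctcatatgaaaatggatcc
Oxct1 first probe, NM_001127580, chr2:53217671-53217730, plus strand: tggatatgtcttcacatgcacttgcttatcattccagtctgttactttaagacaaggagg
Oxct1 second probe, NM_001127580, chr2:53188817-53188876, plus strand: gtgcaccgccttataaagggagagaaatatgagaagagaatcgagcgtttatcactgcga
The Bdh2 probe covers 60 bases of RNA but spans 1233 bases of the genome, so its mapping in the files is split by a gap, while the other 7 lie in unbroken stretches. The starts of the probe pairs are 927 bases apart for Bdh1, 2063 for Slc16a6 and 28854 for Oxct1. Base composition ran from 26.7% G and C in the first Bdh1 probe to 45.0% in the second probes of Oxct1 and Slc16a6. Each probe was printed as 1 spot, and no spot of a member was saturated or marked as an outlier. Whether a probe lies in coding sequence or in a UTR was not analysed here, since no annotation of rn4 was used.

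All probes but 1 were well above background on all 8 arrays. The exception was the second Oxct1 probe, which was above it on 1 of 4 STL arrays and 1 of 4 control arrays. Of the 5 genes, 0 passed the threshold of 0.05 for the adjusted p (limma with Benjamini-Hochberg adjustment over all genes tested), where 1 of 21719 genes did (0.00460%). At an unadjusted limma p under 0.05 there were 3 of 5 members, Oxct1 and Slc16a6 lower and Acat1 higher in STL, against 19.0% of all genes tested, 11.6% higher and 7.40% lower. The STL and control samples did not overlap for Oxct1, all STL below all control as in 5.63% of genes, and for Acat1, all STL above all control as in 11.2% of genes, for Acat1 only with control 1 and 2 averaged. By the mean, 2 members were lower in STL, where 41.9% of genes were, and 3 were higher, where 58.1% of genes were. The median log2 difference over all genes tested was 0.065.

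**Figure D1:**
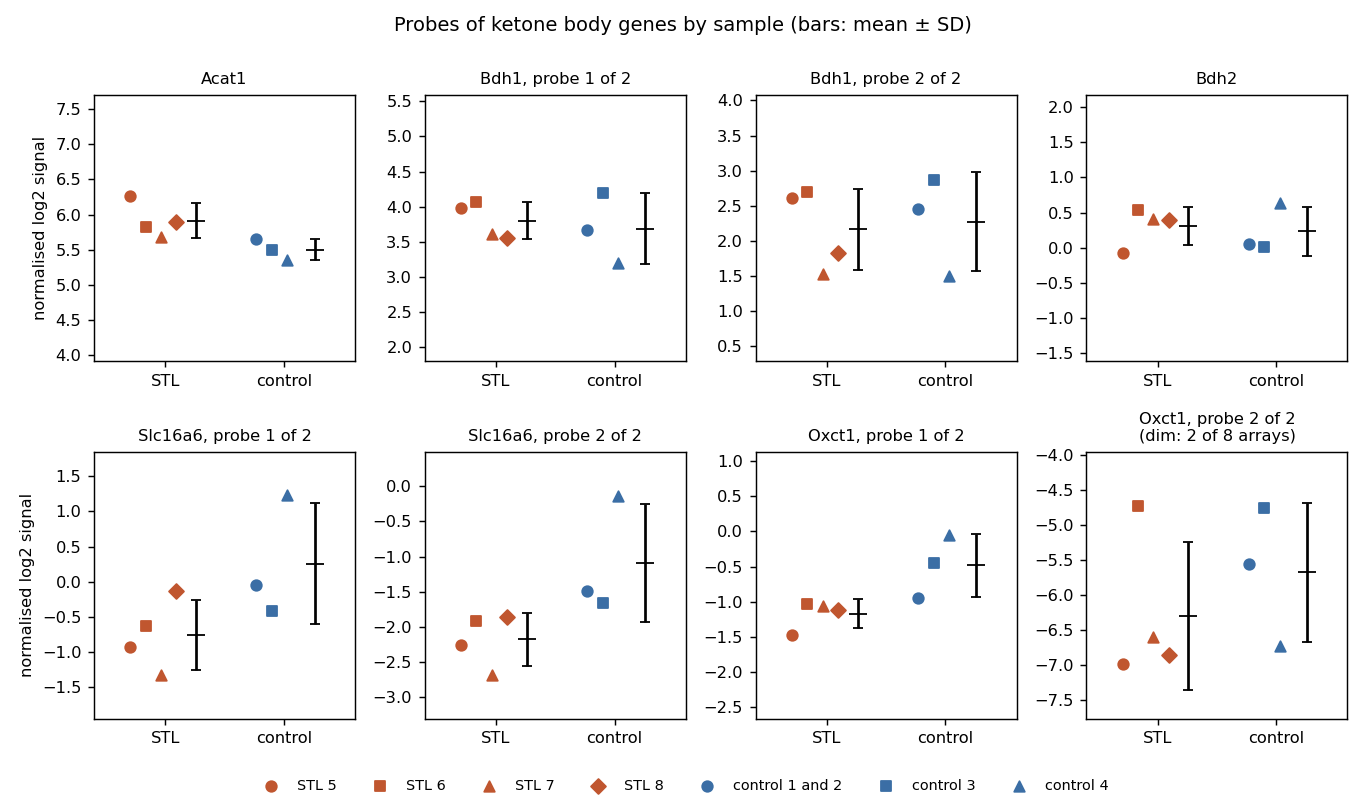
Normalised log2 signal (y axis) of the 8 probes in each STL sample (left, orange) and control sample (right, blue), with the mean and SD of each group as bars (n = 4 STL, n = 3 control); each panel has its own y range. With control 1 and 2 averaged, Acat1 lies higher and the first Oxct1 probe lower in every STL sample than in any control sample, and control 4 stands highest for both Slc16a6 probes.

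Acat1, the thiolase that opens the synthesis route and also works in ketone body use and in isoleucine breakdown, had a higher mean signal in STL livers, a difference that did not pass the test. Its probe read 6.27, 5.83, 5.68 and 5.89 in STL 5 to 8, against 5.65 in the averaged control 1 and 2, 5.49 in control 3 and 5.35 in control 4. STL 5 stood highest, and STL 7 lay just above the averaged control sample. Before averaging, the arrays of control 1 and control 2 read 5.71 and 5.59, so over the 8 arrays STL 7 lay below control 1 and the groups overlapped. The means were 5.92 ± 0.25 in STL livers (SD, n = 4) and 5.50 ± 0.15 in control livers (SD, n = 3). The log2 difference was 0.42 (SE 0.16, 95% interval 0.059 to 0.77), or 1.335-fold, and did not pass over all genes (limma adjusted p = 0.222). The exact two-sided permutation p was 0.0571, the smallest that 4 samples against 3 can give. A larger difference in either direction was found for 24.9% of genes.

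Bdh1, which sets the balance of acetoacetate and beta-hydroxybutyrate in mitochondria, had a difference smaller than its error. The first probe read 3.99, 4.06, 3.61 and 3.55 in STL 5 to 8, against 3.67 in the averaged control 1 and 2, 4.20 in control 3 and 3.19 in control 4. The control samples enclosed all 4 STL samples. The log2 difference was 0.11 (SE 0.24, limma adjusted p = 0.811), and its 95% interval of -0.42 to 0.65 leaves room for STL levels between 0.75 and 1.57 times those of the controls. The second probe, for the predicted transcript variant X1, read 2.61, 2.70, 1.53 and 1.83 in STL 5 to 8, against 2.45, 2.87 and 1.501 in the averaged control 1 and 2, control 3 and control 4. Its difference was -0.11 (SE 0.37, 95% interval -0.96 to 0.74, adjusted p = 0.895 in the limma fit over 27002 probes), so the probes of Bdh1 had opposite signs, each within its error. Both probes placed control 3 highest and control 4 lowest among the controls, and STL 5 and 6 above STL 7 and 8. Without control 4 the difference of the first probe was -0.13.

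Bdh2 encodes a cytosolic short-chain dehydrogenase named for its use of hydroxybutyrate and linked in mouse to the synthesis of an iron-binding siderophore. Its difference too was smaller than its error. The probe read -0.078, 0.53, 0.40 and 0.39 in STL 5 to 8, against 0.051, 0.0065 and 0.64 in the averaged control 1 and 2, control 3 and control 4. The highest sample was a control and the lowest an STL liver. The log2 difference was 0.080 (SE 0.20, 95% interval -0.38 to 0.54, limma adjusted p = 0.850), and it was -0.033 without control 3, -0.011 without the averaged control 1 and 2, and 0.28 without control 4. STL levels between 0.77 and 1.45 times those of the controls lie within the interval of the fit over probes.

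Slc16a6 encodes the monocarboxylate transporter MCT7, which in zebrafish exports beta-hydroxybutyrate from hepatocytes. Its signal had the largest difference among the 5 genes, lower in STL, and did not pass the test. The first probe read -0.93, -0.64, -1.33 and -0.14 in STL 5 to 8, against -0.044 in the averaged control 1 and 2, -0.42 in control 3 and 1.23 in control 4. The groups overlapped, with STL 8 above control 3, and control 4 stood far above the other controls. The difference was -1.02 (SE 0.40, 95% interval -1.93 to -0.10, limma adjusted p = 0.235), a signal 2.02-fold lower in STL, and 3.86% of genes had a larger difference in either direction. Without control 4 it was -0.53 (limma adjusted p = 0.480). The exact two-sided permutation p was 0.114.

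The second Slc16a6 probe gave a like difference. It read -2.26, -1.92, -2.69 and -1.86 in STL 5 to 8, against -1.498, -1.66 and -0.13 in the averaged control 1 and 2, control 3 and control 4. Here the groups did not overlap, as for 5.71% of the probes tested with all STL below all control. The difference was -1.08 (SE 0.37, 95% interval -1.93 to -0.24, adjusted p = 0.209 in the limma fit over probes), or 2.12-fold lower in STL, where 0.00370% of probes passed, with an exact two-sided permutation p of 0.0571. The probes are 2 readings of the same RNA of each liver and are no independent support for each other.

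Oxct1, the CoA transferase of ketone body use, was lower in every STL sample than in any control sample by its brighter probe. The probe read -1.47, -1.03, -1.06 and -1.12 in STL 5 to 8, against -0.94 in the averaged control 1 and 2, -0.45 in control 3 and -0.057 in control 4. The STL livers lay close together apart from STL 5, and the averaged control 1 and 2 stood only just above them. The means were -1.17 ± 0.20 in STL livers (SD, n = 4) and -0.48 ± 0.44 in control livers (SD, n = 3). The difference was -0.69 (SE 0.22, 95% interval -1.18 to -0.20), a signal 1.61-fold lower in STL, and did not pass over all genes (limma adjusted p = 0.187), with an exact two-sided permutation p of 0.0571. In 9.42% of genes the difference was larger in either direction. With array weights, which give each sample a weight from its own scatter, it was -0.66 and passed (limma adjusted p = 0.0449), in a fit that called 1633 genes. Without control 4 it was -0.48 (limma adjusted p = 0.368). The second Oxct1 probe, 28854 bases upstream in the gene, was not tested, being above background on 2 of 8 arrays. Its mean signals of -6.29 in STL livers and -5.68 in control livers give no order at that brightness.

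**Figure D2:**
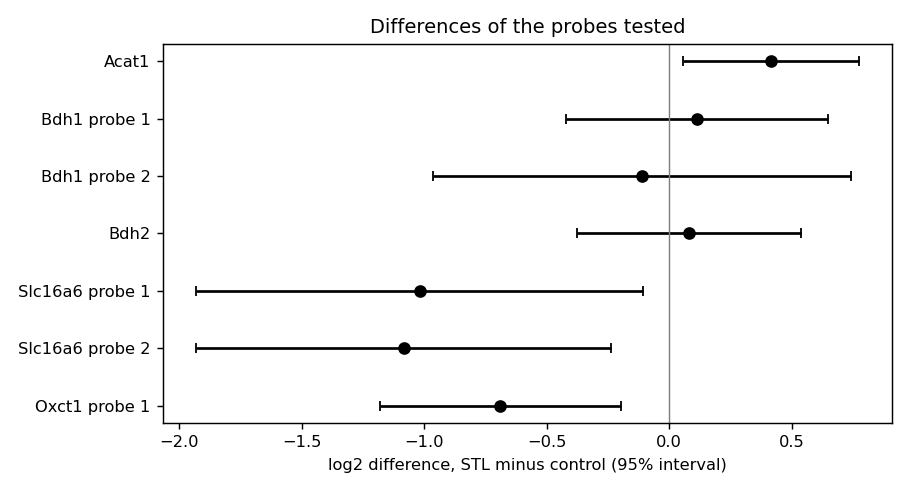
Log2 difference of STL minus control (x axis) for the 7 probes tested, with the 95% interval of the limma fit over probes as bars; the vertical line marks no difference. The intervals of Acat1 (above 0), of Oxct1 and of both Slc16a6 probes (below 0) leave out 0 before adjustment, and those of Bdh1 and Bdh2 include it.

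Of other enzymes around ketone bodies, Oxct2b and Aacs did not pass over all genes. Oxct2b, a relative of Oxct1 known from testis, read 0.48, 0.50, 1.40 and 0.86 in STL 5 to 8, against -0.014, 0.45 and 0.24 in the averaged control 1 and 2, control 3 and control 4. Its difference of 0.58 (limma adjusted p = 0.239), and of 0.47 by its other probe, had the opposite sign to that of Oxct1. Aacs, the cytosolic synthetase that uses acetoacetate for lipid synthesis, differed by -0.14 (limma adjusted p = 0.847) by one probe and -0.50 by the other.

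Fatty acid oxidation, the source of acetyl-CoA for ketone bodies, was measured by 20 genes, of which 18 were higher and 2 lower in STL, with a median log2 difference of 0.38 beside 0.065 over all genes. Of the 20, 0 passed over all genes in either direction, and 9 had an unadjusted limma p under 0.05, all higher. Over all genes tested 58.1% were higher in STL, and 11.6% were higher at that p. Without control 1 and 2 the median was 0.58 and 3 of the 20 passed, all higher, where 215 of 21719 genes passed. With array weights 6 of the 20 passed, all higher, where 1633 of 21719 genes did. The median was 0.27 without control 4 and 0.26 with quantile normalization. Centred on the 7 samples, the list stood at 0.081 in the averaged control 1 and 2, just below STL 6 at 0.091. Hadha, a subunit of the trifunctional protein of long-chain oxidation, was 6.51 ± 0.13 in STL livers (SD, n = 4) and 5.88 ± 0.23 in control livers (SD, n = 3). The groups differed by 0.63 (limma adjusted p = 0.164), and over its 4 probes by 0.49 to 0.63. Decr1, an enzyme for unsaturated fatty acids, differed by 0.73 (limma adjusted p = 0.172). Cpt1a, the gate of mitochondrial fatty acid entry, had the lowest value of the list at -0.14 (limma adjusted p = 0.834), and is named for that after its values were seen.

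Of 14 regulators of ketogenesis tested, 10 were higher and 4 lower, with a median of 0.13, where 58.1% of all genes were higher. That median was 0.051 without control 4, 0.21 without control 3, 0.19 without STL 8 and 0.27 without control 1 and 2. By limma 0 passed in either direction, and 5 had an unadjusted p under 0.05, all higher, beside 11.6% of all genes tested. Ppara, the nuclear receptor for fatty acids that drives fatty acid oxidation genes in liver, differed by 0.77 (limma adjusted p = 0.164), and its other probes by 0.65 and 0.15. Foxa2, a liver transcription factor linked in mouse to fasting ketogenesis, differed by 1.34 (limma adjusted p = 0.0983). Fgf21, a fasting hormone made under Ppara, read 1.39, 2.43, -0.19 and -0.24 in STL 5 to 8, against 2.63, 1.36 and 0.96 in the averaged control 1 and 2, control 3 and control 4. That spread is wider than its difference of -0.80 (95% interval -2.33 to 0.73, limma adjusted p = 0.524).

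Monocarboxylate transporters other than Slc16a6 and their partner proteins gave 14 tested genes, 10 higher and 4 lower, with a median of 0.28. Of all genes tested 58.1% were higher. By limma 0 of the 14 passed in either direction. At an unadjusted p under 0.05 there were 4 higher and 1 lower, beside 11.6% and 7.40% of all genes tested. Slc16a1, the widely used carrier MCT1, which takes butyrate as well as ketone bodies, differed by -0.18 (95% interval -0.76 to 0.40, limma adjusted p = 0.712). Slc16a7, the high-affinity carrier MCT2 of rodent hepatocytes, was 1.65 ± 0.20 in STL livers (SD, n = 4) and 1.19 ± 0.10 in control livers (SD, n = 3). Its STL samples all lay above its control samples, as in 11.2% of genes. Its difference of 0.46 (limma adjusted p = 0.178) ran opposite to that of Slc16a6. Slc16a13 differed by 0.83 (limma adjusted p = 0.178). Leaving out control 4 brought the median of this list to 0.17, and Slc16a14, Slc5a8 and Slc5a12 did not pass the filter on dim probes.

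Other routes of acetyl-CoA and of HMG-CoA were lower in 9 of 11 genes tested, with a median of -0.21, where 41.9% of all genes were lower. By limma 0 passed in either direction, and 2 had an unadjusted p under 0.05, both lower, beside 7.40% of all genes tested. Acss1, the mitochondrial acetyl-CoA synthetase, differed by -0.83 (limma adjusted p = 0.189). Its STL samples all lay below its control samples, as in 5.63% of genes. Without control 3 the median of the list was -0.044. Leucine and isoleucine breakdown, which shares Acat1 with the ketone body route, was higher in 16 of 16 genes tested, by a median of 0.20, where 58.1% of all genes were higher. Without control 4 that median was 0.12. By limma 0 passed, and 3 had an unadjusted p under 0.05, all higher, beside 11.6% of all genes tested. Mccc1, a subunit of the carboxylase of leucine breakdown, differed by 0.41 (limma adjusted p = 0.184) and Hsd17b10, which acts just before Acat1 in isoleucine breakdown, by 0.50 (limma adjusted p = 0.219). Bcat1 did not pass the filter on dim probes.

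**Figure D3:**
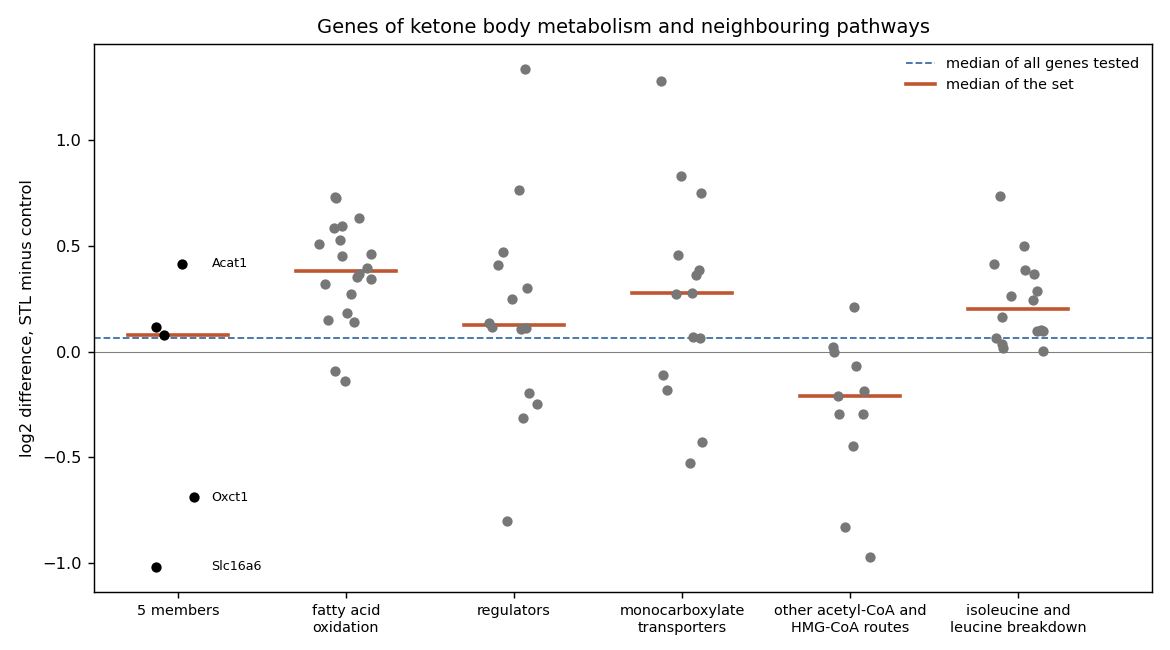
Log2 difference of STL minus control (y axis) for the 5 members and for each gene tested of 5 neighbouring lists, each point a gene, with the median of each set as an orange bar and the median of all genes tested as a dashed line. Slc16a6 and Oxct1 lie far below the transporters' median of 0.28, Acat1 lies near the fatty acid oxidation median of 0.38, and the members with the highest and lowest values and Oxct1 are named.

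The first 4 lists of marker genes, of lesions, proliferation and other cells, were highest in control 4, as were Oxct1 and Slc16a6. Both Slc16a6 probes put control 3 below the averaged control 1 and 2, while the median of each of these lists put it above. A lower signal of a gene in whole liver cannot tell fewer cells of a type from less RNA per cell. Of 7 tested preneoplastic focus markers 7 were lower in STL, by a median of -2.20, 6 of them at an unadjusted limma p under 0.05. Over all genes tested 41.9% were lower in STL, and 7.40% were lower at that p. The summed level of the focus markers, in multiples of the array's 75th percentile, was 14.4 to 121 in STL livers and 96.9 to 327 in control livers. Akr1b10 was the 1 listed focus marker that did not pass the filter on dim probes. Of 8 proliferation markers 8 were lower, 7 of them at that p, with sums of 12.3 to 16.5 in STL livers and 17.0 to 23.3 in control livers. These sums were mostly the bright Aurkb, which differed by -0.13 and was the proliferation marker not under that p. They say little of the other proliferation markers. Of 8 cholangiocyte and progenitor markers 7 were lower, 3 at that p, with sums of 3.21 to 7.96 in STL livers and 6.78 to 16.6 in control livers, and of 7 stellate cell and fibroblast markers 6, 3 at that p, with sums of 28.5 to 41.9 in STL livers and 45.0 to 93.1 in control livers. Control 4 had the highest median of all 7 samples in each of these 4 lists, as it had for Oxct1 and both Slc16a6 probes, and the part of these cells and lesions in the result was not tested. The averaged control 1 and 2 stood at -0.52 in the proliferation list, centred on the 7 samples, inside the STL range. In the focus list STL 6, at 1.03, stood above the averaged control 1 and 2, at 0.40, and above control 3, at 0.93.

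Of the remaining marker lists, the hepatocyte sums did not overlap between the groups, by a narrow margin and with control 1 and 2 averaged. Such a sum is weighted to the brightest markers. Over all genes tested 58.1% were higher and 41.9% lower in STL, with 11.6% higher and 7.40% lower at an unadjusted limma p under 0.05. Of 8 hepatocyte markers 7 were higher, 2 at that p, by a median of 0.38, with sums of 2965.5 to 4443 in STL livers and 2155 to 2949.5 in control livers, so the sums ran the same way as the signal of Acat1, and their part in it was not tested. Macrophage markers were lower in 6 of 8, 1 at that p, with sums of 107 to 151 in STL livers and 121 to 150.4 in control livers. Endothelial markers were higher in 4 of 8, 1 at that p, with 80.2 to 104 in STL livers and 56.3 to 81.0 in control livers. Lymphocyte markers were higher in 5 of 7, 0 at that p, with 14.6 to 20.7 in STL livers and 14.5 to 19.6 in control livers. Erythroid and muscle genes were higher in 4 of 6, 1 at that p, with 6.04 to 9.76 in STL livers and 4.64 to 7.31 in control livers, and their part in the Oxct1 signal was not tested. In these 9 lists, 0 genes passed over all genes in either direction by limma. Cd3e of the lymphocyte list, Lum of the stellate list and Myh7 of the muscle list did not pass the filter on dim probes.

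**Figure D4:**
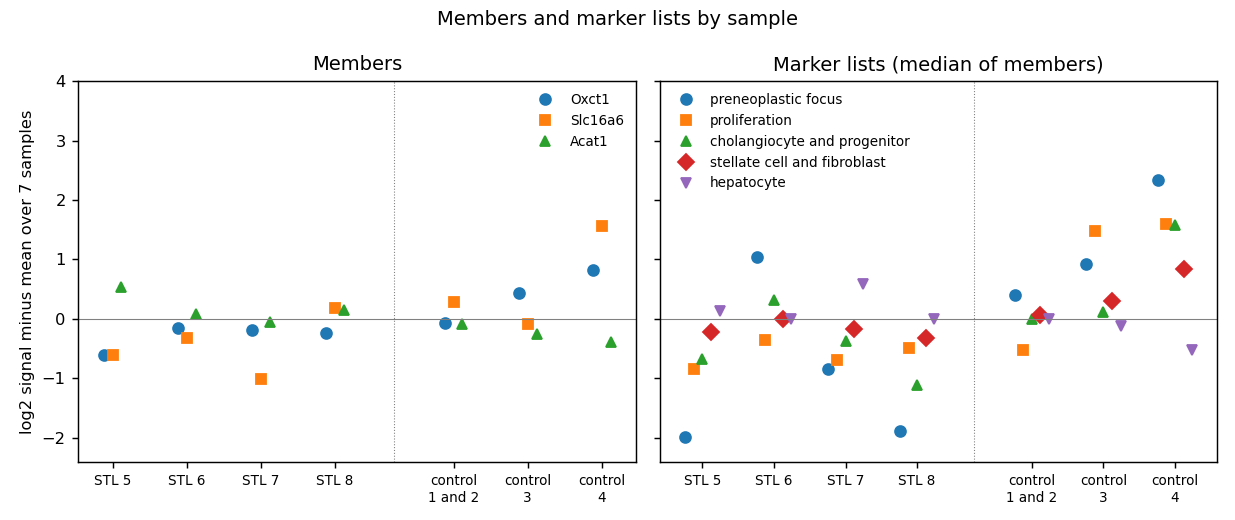
Left, log2 signal minus its mean over the 7 samples (y axis) of Oxct1, Slc16a6 (first probe) and Acat1 in each STL and control sample; right, on the shared y axis, the median over the members of 5 marker lists, centred in the same way. Control 4 is highest for Oxct1 and Slc16a6 and for the focus, proliferation, cholangiocyte and stellate lists, and lowest for Acat1 and the hepatocyte list.

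For each member the 3 genes with the nearest profile were taken, by the root mean square difference of log2 signals centred over the 7 samples, among 13350 genes with a symbol. For Oxct1, whose own root mean square deviation was 0.44, these were Adam12, a metalloprotease gene, at 0.087, Col3a1, a collagen chain and one of the stellate cell markers above, at 0.092, and Paqr8, a progestin receptor, at 0.11. Their differences of STL minus control were -0.66, -0.75 and -0.69. For Slc16a6, with a deviation of 0.76, the nearest were less near: Grb10, an adaptor of insulin receptor signalling, at 0.26, Ms4a7, a macrophage membrane protein, at 0.26, and Kitlg, the ligand of the KIT receptor, at 0.30. For Acat1, with a deviation of 0.28, they were Or8h7, named as an olfactory receptor, at 0.027, Atl2, an atlastin of the endoplasmic reticulum, at 0.038, and Il11ra1, a cytokine receptor, at 0.051. Or8h7 had signals of -2.81 to -1.89, far dimmer than Acat1. For Bdh1 they were Coq10a, Fnip2 and Ppfibp2 at 0.11, 0.12 and 0.13, beside its deviation of 0.32, and for Bdh2 Patz1, Kank3 and Tia1 at 0.084, 0.099 and 0.103, beside 0.26. With 7 samples and this many genes near profiles are found for any gene, and these are given as a description.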

How the data were processed

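Each spot's intensity (mean, local background and processed signal) came from the deposited scanner files, written by Feature Extraction of Agilent, version 11.5.1.1 per the file headers and 10.7 per the submitters' processing notes. Linear intensity values fill the table that the authors deposited for the series, with each column's 75th percentile near 1000 and medians of 42.1 to 48.9. Set against the scanner files, 6 of its 8 columns matched a different array of their group from the one named, and 0 matched the other group. All 8 arrays were on 1 slide with 1 scan time, and each of its 4 columns held 1 STL and 1 control array.

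Spots flagged as non-uniform or population outliers were left out, spots of a probe were averaged, and log2 of the signal was centred on the 75th percentile of the 45598 non-control probes. Probes were named through RefSeq (GRCr8) by accession (23724), symbol (5164) or synonym (353), and 16357 kept the file's name. A probe needed 0.5 or more of its spots well above background to count so on an array. The brightest probe stood for a gene, and genes that counted so on 4 or more of the 8 arrays entered the test with limma 3.58.1 in R 4.3.3 (lmFit, eBayes with trend, two-sided). Arrays with a difference under 1.5 times the spot noise counted as 1 sample. The fit was tested on simulated data. Python 3.11.15 with pandas 2.3.3 read the files. Whether the rats were housed or processed separately is not given, so p-values measure only the spread between these samples.

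The 5 members, the lists and the averaging were chosen with earlier results of these data known. The text names all members with each probe, in each pathway list the 2 genes with the smallest unadjusted p where none passed, Aacs, Slc16a1, Slc16a7, Ppara and Fgf21 whatever their values, and the nearest 3 profiles of each member. Some genes that this rule took are not reported here. The alternatives tried were other scalings, background corrections, filters, probe summaries and names, array weights, slide column as a block, all 8 arrays, and each sample left out.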

Additional observations from a re-analysis of the deposited data

How the results depend on the processing

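Of 19 alternatives, Oxct1 and Slc16a6 stayed lower and Acat1 higher in STL in all 19, with log2 differences of -0.92 to -0.48, -1.35 to -0.36 and 0.30 to 0.50. The 1 call among them was Oxct1 with array weights, at -0.66 (limma adjusted p = 0.0449). Not every alternative could move these members: the other filters on dim probes and the gene names of the files left their differences unchanged. The signs of Bdh1 and Bdh2 were not stable. Leaving out a sample gave -0.13 to 0.37 for Bdh1 and -0.033 to 0.28 for Bdh2. Below 0 were Bdh1 with array weights, at -0.27, and without control 4, at -0.13, and Bdh2 without control 3, at -0.033, and with control 1 and 2 both left out, at -0.011. Slc16a6 was at -0.53 without control 4 and -0.36 with array weights, against -1.02. The count of genes past the threshold, 1 in the comparison of 4 against 3 samples, was 21 with each of the 8 arrays as a sample, 1633 with array weights, and between 1 and 215 when a sample was left out, with 215 without control 1 and 2 and 45 without STL 6. For the monocarboxylate transporter list the median of 0.28 was 0.13 with array weights, 0.13 with the mean of all probes of a gene, and 0.17 to 0.34 when a sample was left out. For the other routes of acetyl-CoA the median of -0.21 was -0.44 with array weights. Of the regulators 1 gene passed with 8 arrays and 1 without control 1 and 2, and with array weights 2 regulators, 3 transporters and 1 gene of leucine and isoleucine breakdown passed, all higher, and 1 gene of the other routes of acetyl-CoA, lower. The regulators' median was 0.081 with median scaling and 0.067 with array weights, and that of leucine and isoleucine breakdown was 0.11 with quantile normalization. The replicate numbers of the groups differ in the labels, and with slide column as a replicate block over 8 arrays Oxct1 was at -0.57, Slc16a6 at -0.94 and Acat1 at 0.38, with no member past the threshold. Arrays that shared a slide column had correlations of their deviations from the group means between -0.24 and 0.19. The median of all genes was 0.065, and 0.020 with median scaling. Signals near background, such as the second Oxct1 probe, cannot be compared, and 3 control samples limit every interval.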

Other observations

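The probes of a gene need not report the same transcripts. For Bdh1, the first probe exceeded the second by a mean log2 gap of 1.64 in STL livers and 1.41 in control livers, and the gap was widest in STL 7 at 2.08 and narrowest in the averaged control 1 and 2 at 1.22. The change of the gap, 0.22, was not larger than the spread between samples (exact two-sided permutation p = 0.286, adjusted p = 0.571 over the 2 genes compared so). For Slc16a6 the gap was 1.42 in STL livers and 1.35 in control livers, a change of 0.066 (exact two-sided permutation p = 0.857).

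Among the transporters, Slc16a10, an aromatic amino acid carrier named after its values were seen, had a larger log2 difference than Slc16a6 and of the opposite sign. It read 1.59, 1.81, 3.29 and 2.52 in STL 5 to 8, against 1.63, 0.57 and 0.88 in the averaged control 1 and 2, control 3 and control 4, a difference of 1.28 (limma adjusted p = 0.189). Hcar2, a receptor for beta-hydroxybutyrate and butyrate chosen likewise, was higher in every STL sample than in any control sample, as in 11.2% of genes. The margin was narrow, with STL 6 at 0.435 and the averaged control 1 and 2 at 0.425. The means were 0.63 ± 0.15 in STL livers (SD, n = 4) and 0.16 ± 0.34 in control livers (SD, n = 3). The groups differed by 0.47 (limma adjusted p = 0.211).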
